A study of Mus musculus with 8 samples.

Results

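PDGF and HGF signalling was followed through 8 genes of NIH3T3 cells, an immortalised mouse embryo fibroblast line: the ligand genes Pdgfa, Pdgfb, Pdgfc, Pdgfd and Hgf and the receptor genes Pdgfra, Pdgfrb and Met. They were picked by symbol from the 24062 genes of the RNA-seq table, and all 8 were listed. Stable clones 10 and 12, which carried 14-3-3ε cloned into the p3xFLAG-CMV-10 vector, were compared with control clones 2 and 3, which carried the control vector. Every clone came from a single colony and was grown in DMEM with 10% serum, and selection for the construct used 800 µg/mL of G418. Each of the 4 clones gave 1 RNA-seq library and 1 reduced representation bisulfite (RRBS) library, which reads cytosine methylation in CpG-rich fragments cut by MspI. The authors' deposited tables give 1 difference per gene and per cytosine, with no value for a clone. The 8 members therefore have no values per sample here, and the spread between clones enters only through the authors' standard errors and adjusted p-values. Neither table states its sign, and a positive value was read as higher in the clones labelled 14-3-3ε, which every direction below rests on. Ywhae, the mouse gene of 14-3-3ε, had a mean normalized count of 15674 in the authors' deposited table. It stood at -0.03 in log2 units of that table (standard error 0.18, adjusted p = 0.942). A higher level of the cloned gene, which would have borne out the labels, was thus not seen. The sources used here do not give how reads of the cloned gene were counted.

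Platelet-derived growth factors are dimers that make fibroblasts, pericytes and smooth muscle cells divide and migrate. The A, B and C chains bind the receptor chain made from Pdgfra, whereas the B and D chains bind the chain made from Pdgfrb, and ligand binding pairs the chains so that they phosphorylate each other. Hepatocyte growth factor, the product of Hgf, is made mostly by mesenchymal cells such as fibroblasts and acts on Met, a receptor found mostly on epithelial cells, but NIH3T3 cells that make both in quantity become transformed. PDGF C and D chains and the HGF precursor are secreted inactive and need cutting by proteases outside the cell.

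The sequence around the annotated starts is shown because both assays bear on it: RNA was measured for the gene and methylation for the CpGs that RRBS could reach. Of the 8 members, 6 had a start in the RefSeq table of build GRCm38.p6, the assembly of mm10, which the submitters' processing notes name. Shown are the starts of 2 genes whose RNA rose (Pdgfra, and Hgf at the first of its 2 starts), that of the gene whose RNA fell (Pdgfc), that of a gene without reads (Pdgfd) and that of Met, whose RNA difference did not pass the test. Each runs 5′ to 3′ from 250 bases before to 50 bases after the start, and capitals mark CpG dinucleotides.
Pdgfra, chr5:75152001-75152300, plus strand: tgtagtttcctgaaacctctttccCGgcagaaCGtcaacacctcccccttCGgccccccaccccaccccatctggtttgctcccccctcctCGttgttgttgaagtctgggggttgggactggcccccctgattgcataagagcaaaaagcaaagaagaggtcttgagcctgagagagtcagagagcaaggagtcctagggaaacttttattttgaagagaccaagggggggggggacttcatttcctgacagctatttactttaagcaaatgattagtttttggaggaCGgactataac
Hgf, chr5:16553245-16553544, plus strand: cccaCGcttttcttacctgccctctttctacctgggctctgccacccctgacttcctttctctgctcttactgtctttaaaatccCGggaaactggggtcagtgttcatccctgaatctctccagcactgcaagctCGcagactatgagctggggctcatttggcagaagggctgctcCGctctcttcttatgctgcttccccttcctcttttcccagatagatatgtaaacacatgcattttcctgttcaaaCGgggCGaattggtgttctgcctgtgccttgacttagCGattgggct
Pdgfc, chr3:81036166-81036465, plus strand: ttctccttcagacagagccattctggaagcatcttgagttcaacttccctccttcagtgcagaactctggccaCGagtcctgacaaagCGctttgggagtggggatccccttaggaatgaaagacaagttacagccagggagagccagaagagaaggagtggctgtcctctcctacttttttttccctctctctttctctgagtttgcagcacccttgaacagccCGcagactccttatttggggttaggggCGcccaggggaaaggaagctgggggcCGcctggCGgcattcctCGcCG
Pdgfd, chr9:6168236-6168535, plus strand: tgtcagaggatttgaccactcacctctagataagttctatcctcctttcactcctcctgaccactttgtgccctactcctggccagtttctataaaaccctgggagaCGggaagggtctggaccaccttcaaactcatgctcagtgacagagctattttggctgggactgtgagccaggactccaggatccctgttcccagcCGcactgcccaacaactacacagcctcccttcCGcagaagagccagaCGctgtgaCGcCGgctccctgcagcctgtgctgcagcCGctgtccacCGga
Met, chr6:17463707-17464006, plus strand: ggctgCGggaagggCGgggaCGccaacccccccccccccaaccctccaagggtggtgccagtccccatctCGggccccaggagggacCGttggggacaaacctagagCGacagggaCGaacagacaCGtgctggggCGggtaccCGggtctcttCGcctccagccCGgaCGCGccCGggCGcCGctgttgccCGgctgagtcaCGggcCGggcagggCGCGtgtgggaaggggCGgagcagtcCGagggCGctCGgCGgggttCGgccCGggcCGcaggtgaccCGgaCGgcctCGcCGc

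The promoters of Pdgfra and Hgf held 5 and 7 CpGs in 300 bases and those of Pdgfc and Pdgfd 8 each, close to the median of 7 over 32817 promoters of the same length. The Met promoter held 34, more than 92.3% of all promoters. The second start of Hgf had 6 CpGs, and the 2 starts of Pdgfa had 24 and 37. The MspI site CCGG, at which the RRBS fragments begin and end, occurred once near the Pdgfra start, 7 times near that of Met and not near that of Pdgfc, and 52.8% of all promoters held at least 1. A TATAAA match on either strand was present in the Pdgfd promoter and in 13.6% of all promoters. GGGCGG on either strand was matched 3 times in the Met promoter and occurred in 35.6% of all promoters, and TGACTCA on either strand was matched once there and occurred in 5.20% of all. A match describes the letters only.

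RNA of both PDGF receptor genes and of Hgf was higher in 14-3-3ε clones, and RNA of the ligand gene Pdgfc was lower. Of the 8 members, 6 had an adjusted p-value, and 4 of these 6 were called at an adjusted p under 0.05, 3 as risen and 1 as fallen. Over all 11482 tested genes 10.9% were called in the same deposited comparison, 6.15% as risen and 4.74% as fallen. With Bonferroni adjustment Pdgfra and Hgf were called, where 2.19% of all tested genes were, and asking for a change of at least 2-fold as well left Pdgfra, Pdgfrb and Hgf, where 3.95% were. The genes were chosen with these results known, so the count describes them and is not a test of the group. In bulk RNA, fewer cells that express a gene and less RNA per cell cannot be told apart.

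**Figure D1:**
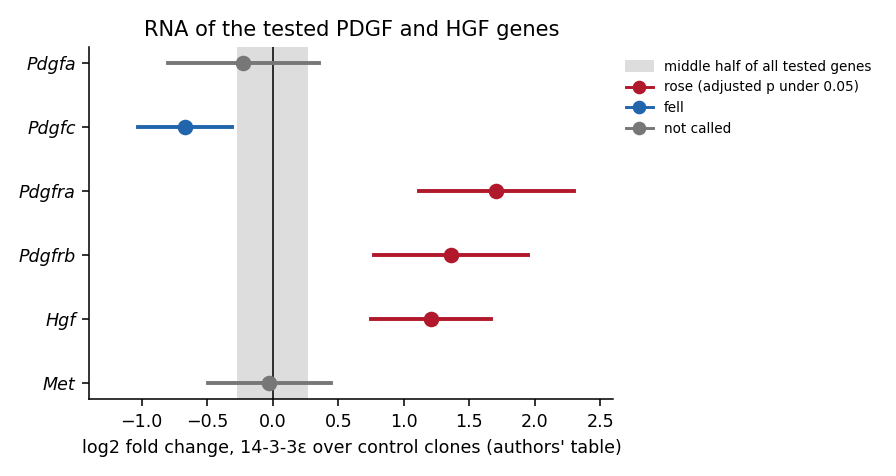
Log2 fold change of RNA (x axis, 14-3-3ε over control clones, authors' table) for the 6 tested PDGF and HGF genes (y axis). Points are the deposited values, lines their 95% intervals from the deposited standard errors, and the grey band the interquartile range of all tested genes; Pdgfra, Pdgfrb and Hgf lie at 1.70, 1.36 and 1.21, Pdgfc at -0.67, and the intervals of Pdgfa and Met hold 0.

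Pdgfra, the receptor chain that marks fibroblasts and their precursors in many tissues, rose by 1.70 in log2 units of the authors' deposited table, whose columns are named as DESeq2 names them (standard error 0.30, adjusted p = 1.44e-06). That is a 3.26-fold rise with a 95% interval of 2.16 to 4.91. Only 85 of the 11482 tested genes had a log2 fold change as large or larger. The mean normalized count over the 4 clones was 17855 in the authors' deposited table, and together with the fold this implies means of about 27325 in 14-3-3ε clones and 8386 in control clones. Implied means of this kind take the deposited fold at face value, and if that fold is a moderated one the means may lie further apart. The gene spans chromosome 5 from 75151322 to 75198206.

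Pdgfrb, the receptor chain of pericytes and smooth muscle cells that fibroblasts also carry, rose by 1.36 in log2 units of the authors' deposited table (standard error 0.30, adjusted p = 0.000266). The fold was 2.57 with a 95% interval of 1.71 to 3.86, and 152 tested genes had a log2 fold change as large or larger. Its mean normalized count of 4843 in the authors' deposited table implies about 6970 in 14-3-3ε clones and 2717 in control clones. The gene spans chromosome 18 from 61045127 to 61085067. The log2 intervals of the 2 receptor genes, 1.11 to 2.30 for Pdgfra and 0.77 to 1.95 for Pdgfrb, overlap, and the difference between their folds was not tested.

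Among the PDGF ligand genes, Pdgfc fell by 0.67 in log2 units of the authors' deposited table (standard error 0.18, adjusted p = 0.00552). The level in 14-3-3ε clones was 0.628 of that in control clones, with a 95% interval of 0.489 to 0.807. The mean normalized count of 2312 in the authors' deposited table implies about 1784 in 14-3-3ε clones and 2840 in control clones. Pdgfc lies on chromosome 3 from 81036416 to 81214040, and 587 of the tested genes had a log2 fold change as low or lower.

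Pdgfa, whose chain binds the receptor of Pdgfra, stood at -0.22 in log2 units of the authors' deposited table (standard error 0.29, adjusted p = 0.706). Its 95% interval, -0.80 to 0.35, holds both a modest fall and a modest rise. The mean normalized count was 558 in the authors' deposited table, which with the fold implies about 514 in 14-3-3ε clones and 601 in control clones.

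Of the other PDGF ligand genes, Pdgfb, the cellular gene of the sis oncogene, was listed in the authors' deposited table with a mean normalized count of 0.246, and Pdgfd with 0. In all, 1097 genes share one of the 4 lowest means above 0, and the 10 next higher means are the sums of pairs of these 4, to within 1e-07. Values of this kind arise when a gene has 1 read in 1 of 4 libraries, and the mean of Pdgfb equals the second lowest of the 4. The deposited fold change at that level is positive, so on the assumed sign Pdgfb had 1 read in 1 library of a 14-3-3ε clone, and no read in the other 3. Pdgfd had no read in the 4 libraries, which allows up to 3 reads in all, or a mean normalized count of 0.75, for counting error only. A difference between groups was not detectable for either gene at this depth. The same 4 means give size factors of 0.925 to 1.08, a ratio of 1.17 between the largest and the smallest, and total reads per library are unknown.

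Hgf rose by 1.21 in log2 units of the authors' deposited table (standard error 0.23, adjusted p = 1.60e-05). The fold was 2.31 with a 95% interval of 1.68 to 3.17, and 211 tested genes had a log2 fold change as large or larger. The mean normalized count of 1303 in the authors' deposited table implies about 1819 in 14-3-3ε clones and 788 in control clones. Hgf spans chromosome 5 from 16553495 to 16619439. Its log2 interval of 0.75 to 1.66 overlaps those of both PDGF receptor genes.

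Met, the receptor of HGF, stood at -0.025 in log2 units of the authors' deposited table (standard error 0.24, adjusted p = 0.970). The 95% interval of its fold was 0.709 to 1.36. The mean normalized count of 4315 in the authors' deposited table implies about 4277 in 14-3-3ε clones and 4353 in control clones. The log2 intervals of Hgf and Met do not overlap, and the difference between the 2 genes was not tested. Met lies on chromosome 6 from 17463349 to 17573980.

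**Figure D2:**
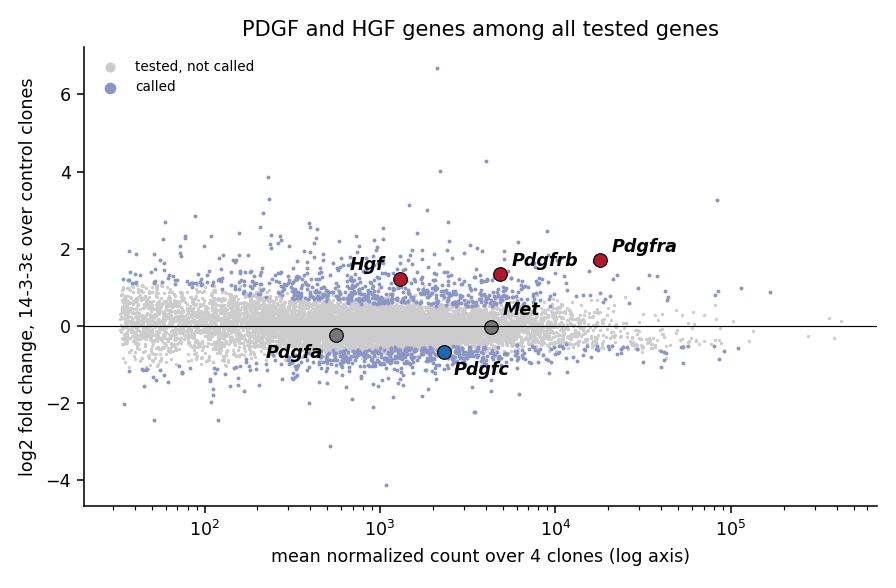
Log2 fold change (y axis, 14-3-3ε over control clones) against the mean normalized count over the 4 clones (x axis, log scale) for the 11482 tested genes of the authors' table. Large points are the 6 tested members, red where RNA rose, blue where it fell and grey where it was not called; Pdgfra has the highest mean of the 6, at 17855, and a log2 fold change of 1.70.

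The table was checked against the labelled cell type. Of 12 fibroblast marker genes 11 were tested and 5 rose, or 45.5% of those tested, where 6.15% of all tested genes rose. The 5 were Col1a1, Col1a2, Col3a1, Col5a1 and Postn, with log2 fold changes from 0.89 to 3.25 in the authors' deposited table. These 5 markers moved in the same direction as Pdgfra, Pdgfrb and Hgf, and their part in those results was not tested. The mean normalized counts of the 12 summed to 917347, with Fap at 0, against 22102 for 11 pericyte and smooth muscle markers, in the authors' deposited table. Of these 11 markers 6 were tested, with a median of 0.34 in log2 units, and 1, Des, fell. Over all tested genes 4.74% fell. Acta2, which holds most of that sum, stood at 0.68 (adjusted p = 0.150) and Tagln at 0.87 (adjusted p = 0.0882), both the same way as Pdgfrb, in the authors' deposited table. Cspg4, with a mean normalized count of 4064, stood the other way there, at -0.17 (adjusted p = 0.756), and so did Des. Of the 6 tested markers 4 lay above 0. Rgs5 was listed there at 0.250 and Kcnj8 at 0, and the part of these markers in the result for Pdgfrb was not tested. The 7 epithelial, 6 endothelial and 6 blood markers summed to 57.2, 32.8 and 209. For scale, Cxcl12, a chemokine gene, rose by 6.68 in the authors' deposited table. With 2 clones per group, differences that arose between clones cannot be told apart from an effect of the construct.

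The RNA of 4 genes whose products activate these ligands rose in 14-3-3ε clones. Of 17 genes for proteases that cut PDGF or HGF precursors and for their inhibitors, 5 were tested and 4 rose. Over all tested genes 6.15% rose. The list median was 0.75 on the log2 scale, where all tested genes had -0.0027. Plat, the tissue plasminogen activator gene whose product cuts PDGF-C, rose by 1.12 in the authors' deposited table (standard error 0.33, adjusted p = 0.0113). Plau, the urokinase gene whose product cuts PDGF-D and can cut the HGF precursor, rose by 0.86 (standard error 0.21, adjusted p = 0.00122) in the authors' deposited table. The convertase genes Furin and Pcsk7 rose by 0.69 and 0.75 in the authors' deposited table. St14 and the inhibitor genes Spint1 and Spint2, which act on HGF at epithelial surfaces, were listed at 0 in the authors' deposited table.

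Relatives of the ligands and receptors moved in both directions. In the wider PDGF and VEGF family 2 of 11 tested genes rose and 2 fell, with a median of 0.56, where 10.9% of all tested genes were called in either direction. Pdgfrl, a gene similar to the PDGF receptors, rose by 0.90 in the authors' deposited table (adjusted p = 0.0259). The coreceptor gene Nrp1 rose by 0.77 and Nrp2 fell by 0.83 in the authors' deposited table. Kitl, the ligand gene of the related receptor Kit, fell by 1.57 in the authors' deposited table (standard error 0.27, adjusted p = 5.15e-07). Kit and Kdr, neighbours of Pdgfra on chromosome 5 in the mouse genome, had no read, and Csf1r stood at 0.56 in the authors' deposited table (adjusted p = 0.394).

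Among relatives of Hgf and Met and the partners of Met, 2 of 8 tested genes rose, against 6.15% of all tested genes. Mst1r, the gene of the receptor Ron, rose by 1.86 in the authors' deposited table (standard error 0.39, adjusted p = 0.000124), at a mean normalized count of only 51.5. Lrig1, a membrane protein gene whose product lowers Met and other receptors, rose by 0.97 in the authors' deposited table (adjusted p = 0.000549). The median of the 8 was 0.36, with 2 genes at an unadjusted p under 0.05 above 0 and 1 below 0 in the authors' deposited table.

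Downstream of the receptors, 7 of 60 tested genes for adaptors, relay and brakes were called, or 11.7%. All 7 rose, where 6.15% of all tested genes rose and 10.9% were called in either direction. Of 25 genes for adaptors and enzymes that dock on activated receptors 5 rose, and the median was 0.15. These were Stat3, a transcription factor gene, at 0.88, Rasa1, a Ras inhibitor gene, at 0.81, the adaptor genes Frs2 and Shc1 at 0.68 and 0.59, and Pik3r1, a regulatory subunit of PI 3-kinase, at 0.68 in the authors' deposited table. In the Ras, MAP kinase and Akt relay 1 of 19 tested genes rose, a share of 5.26%, with a median of -0.021. This was Rras, at 0.71 in the authors' deposited table. Among 16 tested brakes on receptors 1 rose, a share of 6.25%. This was Errfi1, an inhibitor of EGF receptors that growth factors induce, at 0.75 in the authors' deposited table.

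Of 30 growth-factor response genes of fibroblasts, all tested, 8 rose and 4 fell, with a median of 0.24, where 6.15% of all tested genes rose and 4.74% fell. The largest rises were those of Egr2, Egr1 and Fos, transcription factor genes switched on within minutes of growth factor addition, at 2.14, 1.77 and 1.52 in the authors' deposited table. The largest falls were those of Fosl1, the AP-1 gene of the later response, by 1.81, the urokinase receptor gene Plaur, by 1.37, and the cyclin D1 gene Ccnd1, by 0.89, in the authors' deposited table.

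Other receptor tyrosine kinases served as the closest comparison for Pdgfra, Pdgfrb and Met. Of 31 such genes 19 were tested, 3 rose and 1 fell, or 21.1% against 10.9% of all tested genes, with a median of 0.18. The EGF receptor gene Egfr rose by 1.67, the Axl relative Mertk by 1.15 and the Wnt receptor gene Ryk by 0.61 in the authors' deposited table. Epha2, an ephrin receptor gene, fell by 0.97 in the authors' deposited table (adjusted p = 0.00420). Together the 8 lists hold 168 genes, of which 133 were tested, 26 rose and 7 fell. That is 24.8% called in either direction, where 10.9% of all tested genes were called, 6.15% as risen and 4.74% as fallen. The lists were chosen with earlier results of these data known, and their counts are a description.

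**Figure D3:**
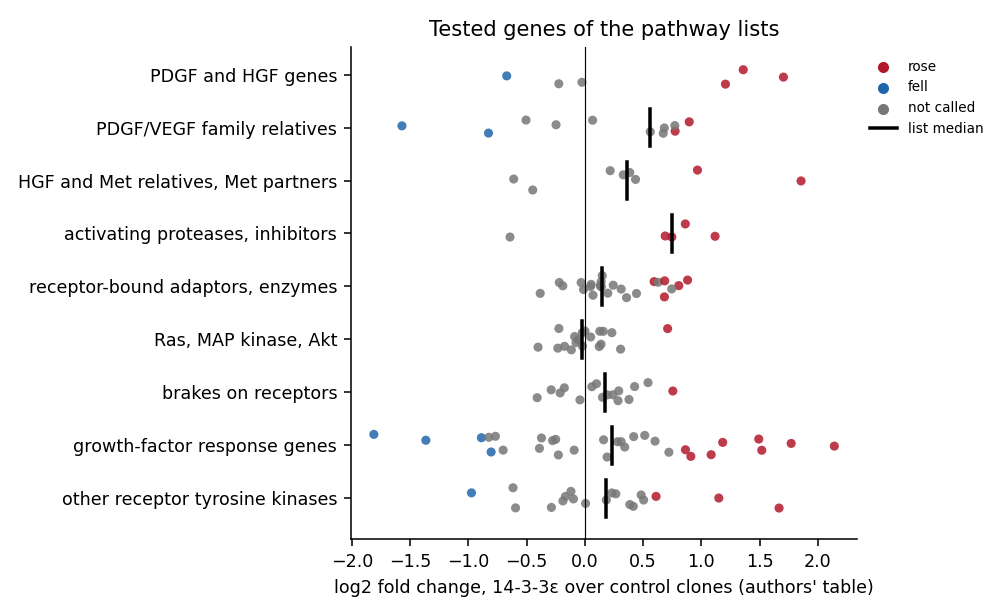
Log2 fold changes (x axis, 14-3-3ε over control clones, authors' table) of the tested members and of the tested genes in 8 pathway lists (y axis), 1 point per gene with random vertical scatter. Red points rose, blue points fell, grey points were not called, and black bars give each list's median; the proteases have the highest median, 0.75, and the Ras, MAP kinase and Akt genes the lowest, -0.021.

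In the methylation comparison, none of the 5 members with enough listed cytosines had a called window around an annotated start. A cytosine was called at the authors' q under 0.05, and a window of 1000 bp on each side of a start was called where 5 or more cytosines were listed, 3 or more and 10% or more of them were called, and all calls had the same sign. By this rule 3.11% of the 17211 start windows of all genes were called. Over the 2361680 listed cytosines, 4.74% were called, 1.92% as higher and 2.83% as lower. Within the 8 genes 48 of 1202 listed cytosines were called, 22 higher and 26 lower, or 3.99%. Differences are in percentage points of the authors' deposited table, whose columns are named as methylKit names them and whose coverage is unknown, so the precision of single cytosines is carried by the q-values alone.

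Within the annotated spans of the 4 members whose RNA was not called or not tested, 46 of 909 listed cytosines were called. That is 5.06%, near the 4.74% over all listed cytosines. In the 4 genes whose RNA rose or fell (Pdgfra, Pdgfrb, Hgf and Pdgfc), 2 of 293 listed cytosines were called, or 0.683%. In Pdgfb and Pdgfd, the genes with 1 read or none, 29 of 411 were called, or 7.06%, and in Pdgfa and Met 17 of 498, or 3.41%. With 50 kb of flanks on each side the gap was smaller, with 28 of 776 called, or 3.61%, at the 4 genes whose RNA changed and 78 of 1364, or 5.72%, at the other 4. Cytosines of 1 gene share their reads and fragments and are not independent, and the difference between these sets was not tested.

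**Figure D4:**
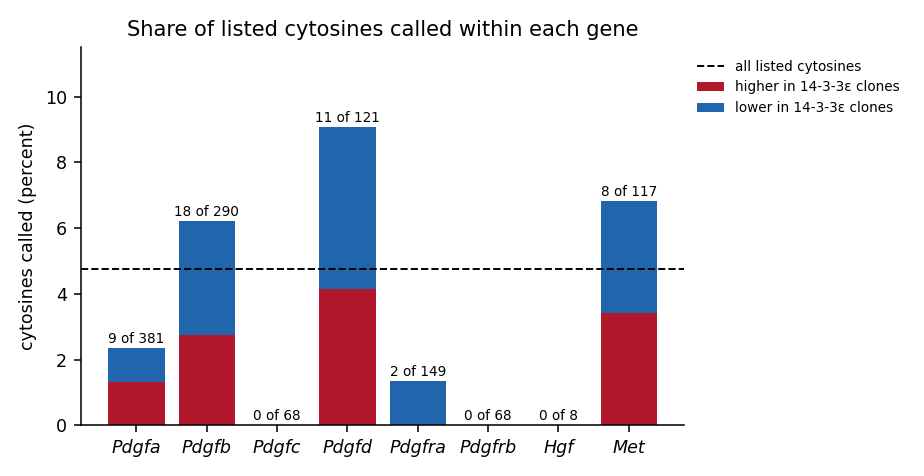
Share of listed cytosines called at q under 0.05 (y axis, percent) within each of the 8 genes (x axis), split into cytosines higher and lower in 14-3-3ε clones. Numbers give called of listed cytosines and the dashed line the share over all listed cytosines, 4.74%; Pdgfd has the highest share, 11 of 121, and Pdgfc, Pdgfrb and Hgf have none called.

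At Pdgfra, 32 cytosines were listed within 1000 bp of the start, all between 874 and 996 bp after it. None of the 32 was called, with 1 at an unadjusted p under 0.05 in the authors' deposited methylKit table. The differences of these 32 averaged -0.27 points with an SD of 1.13 over cytosines and ranged from -6.01 to 1.05 in the authors' deposited table. Over the gene 2 of 149 cytosines were called, both lower, at -11.4 and -7.70 points in the authors' deposited table, and the other strand of both CpGs was not called. Upstream, at -2260 to -1836 bp from the start, 3 cytosines were called with opposite signs, at -31.4, -35.7 and 22.2 points in the authors' deposited table. Their other strands stood at -7.97, -2.41 and 2.88 points in the authors' deposited table, and none of these was called. The 300 bases shown above held no listed cytosine.

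Hgf could hardly be followed by RRBS. Within 50 kb of the gene 8 cytosines were listed, all inside it and none near either start, and none was called, with 2 at an unadjusted p under 0.05 in the authors' deposited methylKit table. For Pdgfrb, whose start was not in the promoter table, the windows at both annotated ends were taken. That at 61045127 on chromosome 18 held 21 cytosines, averaging 0.440 points with an SD of 3.95 in the authors' deposited table, and that at the other end held none. Not 1 of these 21, nor of the 68 cytosines in the gene, was called, and 4 of each had an unadjusted p under 0.05 in the authors' deposited methylKit table.

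At Pdgfc 54 cytosines were listed around the start and averaged -0.498 points with an SD of 2.77 in the authors' deposited table. A single one of the 54 was called, at -877 bp from the start, with -17.1 points, and it had -5.84 points on its other strand in the authors' deposited table. Inside the gene none of 68 was called and 6 had an unadjusted p under 0.05 in the authors' deposited methylKit table.

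Pdgfd, the gene without reads, came closest to a called start window. Of 36 cytosines there, 3 were lower and none higher, or 8.33%, just under the 10% the rule asks for. They lay 56, 57 and 65 bp after the start, at -20.9, -20.7 and -24.5 points in the authors' deposited table. The first 2 are the strands of 1 CpG, and the third had -10.8 points on its other strand, which was not called. Within the gene, 320373 to 320507 bp from the start, 4 of 8 cytosines were higher, by 26.1, 36.5, 32.1 and 17.4 points in the authors' deposited table. Those at 36.5 and 32.1 points are the strands of 1 CpG. Those at 26.1 and 17.4 points had 5.14 and 6.52 points on their other strands, which were not called. The window of these 4 cytosines, chromosome 9 from 6488001 to 6489000, was the only called 1 kb window inside a member.

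Pdgfb, with 1 read, had calls in both directions. Its dense stretch on chromosome 15 from 80012490 to 80014913 held 210 listed cytosines in 3 blocks, with 5 higher and 9 lower. Only 65 bp apart there, 1 cytosine stood at -40.9 points (80014779) and another at 33.2 points (80014714) in the authors' deposited table, and neither cytosine was called on its other strand. The 17 cytosines at the upper annotated end of the gene held no call, and 1 had an unadjusted p under 0.05 in the authors' deposited methylKit table. Elsewhere in the gene 1 CpG was higher on both strands, by 31.3 and 30.8 points at 80004704 and 80004705 in the authors' deposited table.

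Met had 85 listed cytosines around its start, 4 higher and 2 lower, and so no call by the rule. The 4 higher ones lay together at -465 to -452 bp from the start, at 14.2 to 22.7 points in the authors' deposited table. Their other strands stood at 8.61 to 14.5 points in the authors' deposited table, and none of these was called. The lower pair was 1 CpG 365 bp after the start, at -11.7 and -18.4 points on its strands in the authors' deposited table. The 18 cytosines in the Met promoter sequence shown were not among those called. Pdgfa had 137 and 163 cytosines around its 2 starts, with 1 and 3 higher and 1 and 2 lower. These 2 windows overlap, and both called cytosines of the first are counted again in the second. Its largest differences stood at 1 CpG that was higher on both strands, by 35.5 and 29.0 points in the authors' deposited table, at -868 and -869 bp from the second start.

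**Figure D5:**
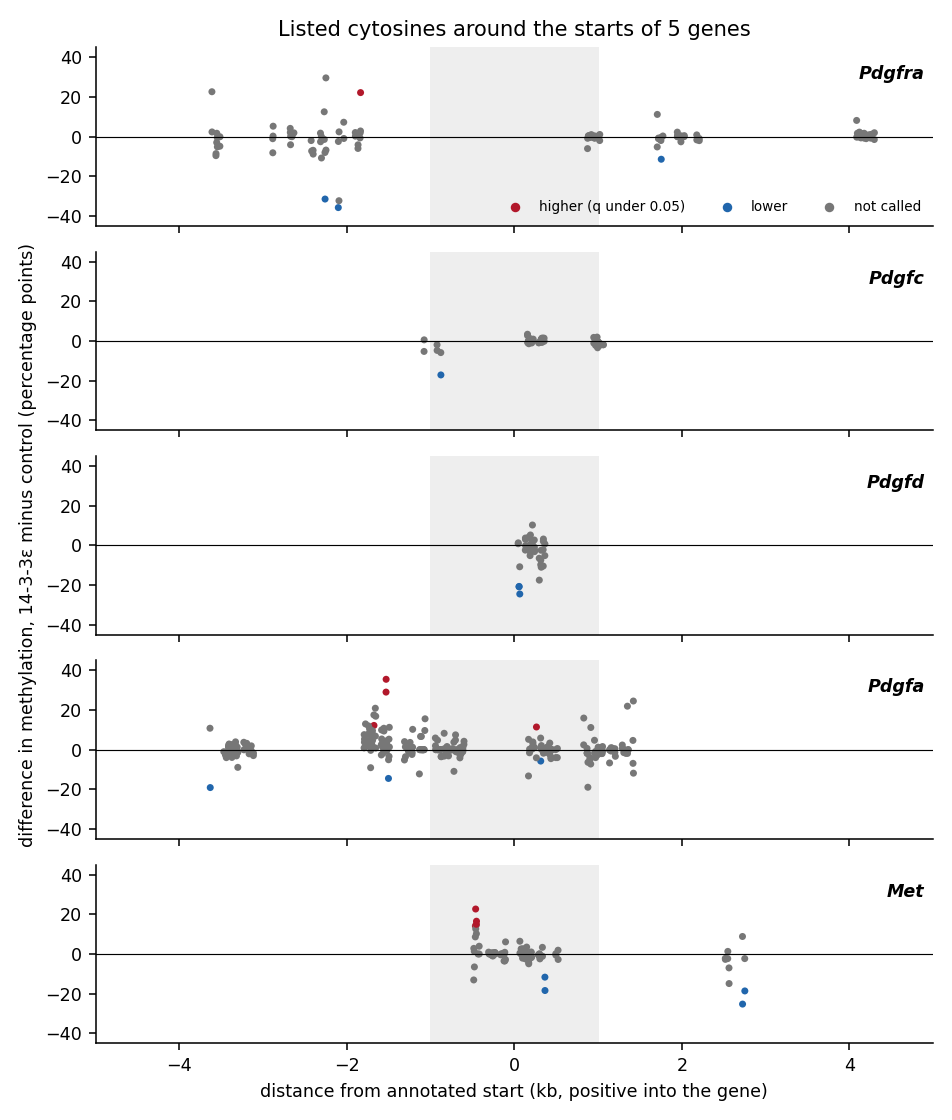
Difference in methylation (y axis, percentage points, 14-3-3ε minus control clones) of each listed cytosine against its distance from the annotated start (x axis, kb, positive into the gene) for Pdgfra, Pdgfc, Pdgfd, Pdgfa (first listed start) and Met. Grey shading marks 1000 bp on each side; red cytosines were higher and blue ones lower at q under 0.05, the 32 cytosines shaded at Pdgfra lie between -6.01 and 1.05, and the 3 lower ones at Pdgfd stand just after the start.

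In the 8 genes, 45 of the 48 called cytosines had their other strand listed. The sign was the same there for 38, and 10 were called on both strands with the same sign. These 10 cytosines include both strands of each such CpG, so the CpGs are fewer than 10. In the genes and 50 kb on each side, 4 of 112 windows of 1 kb with at least 5 listed cytosines were called, or 3.57%, close to the 3.45% over all 125698 such windows. Beside that in Pdgfd, they were 3 windows in the flanks of Pdgfa, 2 higher and 1 lower.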

How the data were processed

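RNA-seq and RRBS were each compared between 2 14-3-3ε clones and 2 control clones. Trim Galore, Bismark, Bowtie2, methylKit, TopHat2, HTSeq and DESeq2 and the build mm10 are named, without version, setting or role, per the submitters' processing notes. The mean normalized count is a signal deposited by the authors, read as DESeq2's mean of size-factor-scaled counts. The log2 fold change and its standard error were deposited by the authors, as were a score that is their quotient, p-values and adjusted p-values. In the RRBS table p-values, q-values and a difference in percent methylation, treated here as a score, were deposited by the authors. For coverage, strand use in counting and pooling of clones, nothing is given in the sources used here.

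From these values calls were counted, 95% intervals computed as 1.96 standard errors on each side, and means per group implied from the mean and the fold. Adjusted p-values stand as deposited, over 11482 of 24062 genes, none below 33.1 in mean normalized count; Benjamini-Hochberg adjustment of the deposited p-values returned them to within 2.18e-15. The mean normalized counts sum to 27972455, a scaled measure of depth. From 2361933 RRBS lines 253 duplicates were dropped. All 68713 listed plus-strand cytosines within plus-strand promoters of the RefSeq table fell on a CG of its sequence. Symbols of all 8 members matched the gene table. Members Pdgfra, Pdgfb, Pdgfd, Hgf and Met overlap other genes of the RefSeq table (Mir7025, Mir7213, Ddi1, Gm31113 and Gm52893), and the counting of shared reads is not stated. Named are all members and, in each list, every called gene up to 6, otherwise the 3 largest in each direction. Uncalled genes of the lists that are named (St14, Spint1, Spint2, Kit, Kdr, Csf1r) were chosen after their values were seen. So were the uncalled markers that are named (Fap, Acta2, Tagln, Cspg4, Rgs5, Kcnj8). A gene of the lists is not reported here. Members and lists were chosen with earlier results of these data known. The functions were tested on simulated data. Python 3.11.15, pandas 2.3.3, numpy 2.4.6, scipy 1.17.1 and matplotlib 3.10.9 were used. Alternatives varied thresholds, filters, centring and windows.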

Additional observations from a re-analysis of the deposited data

How the results depend on the processing

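Under the 7 RNA alternatives 39 of 42 member values stayed on the same side of the threshold; these settings leave the deposited folds as they are, apart from a centring of 0.0027, and so do not test direction. With Bonferroni adjustment 2 members were called, Pdgfra and Hgf, while Pdgfrb reached an adjusted p of 0.0682 and Pdgfc one of 1.0. Requiring a change of at least 2-fold as well dropped Pdgfc from the calls and left 13 of 33 called pathway genes, 10 higher and 3 lower. For both, the alternative's own stricter rule accounts for the lower count. Members with a called start window numbered 0 under all 6 methylation alternatives, where 0.825% to 3.66% of all start windows were called, as in the comparison reported, though Hgf, Pdgfb and Pdgfrb could not enter it and with 500 bp on each side only 4 members had 5 listed cytosines. Leaving out a clone could not be tried, since the tables give no value per clone. No paired analysis was possible because the compared clones share no replicate number and no values per clone were used. Coverage per cytosine is unknown, which limits every reading of single cytosines.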

Other observations

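Genes close to the members were looked up by position, within 250 kb of each member's annotated span. Of 50 listed neighbours 27 were tested, 1 rose and 3 fell in the authors' deposited table, against 10.9% called among all tested genes. No tested neighbour of Pdgfra or Hgf was called: Chic2, the 1 tested gene near Pdgfra, stood at 0.50 in log2 units (adjusted p = 0.224), and the calcium channel subunit gene Cacna2d1, the 1 near Hgf, at 0.17 (adjusted p = 0.750), both from the authors' deposited table. Near Pdgfrb the ribosome biogenesis gene Tcof1 fell by 0.71, and the neighbouring receptor gene Csf1r was not called, in the authors' deposited table. Cav2, a caveolin gene 174 kb from Met, fell by 0.81 in the authors' deposited table (adjusted p = 0.0347). Near Pdgfb, the gene with 1 read, the glycosyltransferase gene Mgat3 rose by 1.08 and the ribosomal protein gene Rpl3 fell by 0.51 in the authors' deposited table.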
